A study of Triticum aestivum with 20 samples.

Results

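State E4 of leaf is a mixed chromatin state of bread wheat, in which the repressive mark H3K27me3 lies on the same stretch as weaker active marks. Neighbouring E4 segments of leaf were merged into runs, and all runs were taken, which gave 70405 runs out of 1026958 runs of any state. They covered 52.8 Mb, or 0.375% of the genome and 77.7% of all mixed chromatin of leaf. The members were therefore chosen from the leaf segmentation, and their length, number and neighbours in leaf are given as a description. The state of the same bases in vernalized leaf played no part in the choice.

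H3K27me3 is a mark set by Polycomb repressive complexes and is typical of genes that are held silent in a tissue or at a stage of development. H3K4me3 and H3K27ac mark the starts of active genes, and H3K36me3 marks the bodies of transcribed genes. Chromatin with both kinds of marks is known as bivalent where the marks sit on the same nucleosomes. In a bulk tissue the same picture arises where some cells carry one mark and other cells the other, and these segmentations cannot tell the 2 situations apart. In wheat and barley, vernalization is a known setting of H3K27me3 change, since this mark decreases around the flowering gene VRN1 over a long cold period.

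The plants were of the winter wheat cultivar AK58. Leaf came from plants grown for 2 weeks after germination. Vernalized leaf came from plants also grown for 2 weeks, then kept for 1 month in a cold chamber at 4 °C and for 1 day in a greenhouse. The plants of the second group were thus older, and age, cold and the return to warmth cannot be told apart. Each condition had 10 libraries of chromatin immunoprecipitation followed by sequencing (ChIP-seq), with 8 for the histone marks H3K4me3, H3K27ac, H3K36me3 and H3K27me3 and 2 for input. The authors turned the marks and chromatin accessibility into 1 segmentation per condition, with 9 states in bins of 200 bp over 21 chromosomes of IWGSC RefSeq v1.0. The segmentations hold no values per library and no read numbers. Sequencing depth was not analysed here. No spread between plants can be given, and a difference between leaf and vernalized leaf has no test.

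The states were used in 4 classes. Activated chromatin is E1, E2, E6 and E7, which carry active marks or accessibility, with E2 marked mainly by H3K36me3. Repressed chromatin is E5, with H3K27me3 alone. Mixed chromatin is E3, E4 and E8, and unmodified chromatin is E9. In the study's display of leaf, the E4 row has strong H3K27me3 with weaker H3K27ac and H3K4me3 and little accessibility. E3 adds accessibility and stronger active marks, and E8 is accessible with H3K27me3. In vernalized leaf the E4 row has H3K27me3 with weak H3K27ac and no visible H3K4me3, so a state number may stand for different marks before and after vernalization. The makeup of the marks could not be checked from state labels alone. What the labels do show is that E4 lay next to E5 on 81.8% of its 140810 sides.

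Most E4 runs were short. The 200 bp bin sets the shortest possible run, and 26.6% of the runs were of that length. The median was 600 bp, the 75th percentile 1000 bp, the 90th percentile 1600 bp and the mean 749 bp ± 564 (SD over 70405 runs). Runs of 2000 to 4800 bp made up 4.24% of the runs and 13.3% of their length. Only 4 runs reached 5000 bp. In comparison, runs of leaf E5 had a median of 1800 bp, and those of E3 and E8 had a median of 400 bp.

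The bases of E4 mostly stayed in a state with H3K27me3 in vernalized leaf but lost the mixed label. In vernalized leaf 56.4% of them were repressed, with a 95% interval of 56.2% to 56.6%. A further 23.8% were still mixed (23.65% to 23.98%), 14.8% were unmodified (14.70% to 14.97%) and 4.99% were activated (4.91% to 5.07%). The intervals are Wilson binomial intervals over bins. They treat bins as independent draws, although all E4 bins were counted and bins beside each other are not independent. They therefore give no precision for a condition. Together, 80.2% of the bases were in E3, E4, E5 or E8, the 4 states with H3K27me3. On each of 21 chromosomes the repressed share exceeded the mixed share. The activated bases were mostly in E2, which took 78.0% of them.

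Bases that stayed mixed did not mostly stay in E4. E3 of vernalized leaf held 12.5% of all leaf E4 bases, E4 held 9.49% and E8 held 1.80%. Seen from vernalized leaf, 61.2% of its E3 bases and 40.9% of its E4 bases had been E4 in leaf. Of the E8 bases, 9.04% had. The E4 label covered much less of vernalized leaf, with 19392 runs over 12.3 Mb, a length ratio of 0.232. This ratio compares labels, since E4 may stand for different marks in leaf and in vernalized leaf. Of the 55745 mixed runs of vernalized leaf, 22363 held at least 1 leaf E4 base, and 68.6% of these lay wholly inside leaf E4.

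By runs in place of bases, 67.1% of the E4 runs were in a single class throughout in vernalized leaf, 26.6% held 2 classes, 5.91% held 3 and 0.403% held all 4. The first share includes the 18711 runs of 200 bp, which are single bins and could hold only 1 class. A run was wholly repressed in 31649 cases, or 45.0%, against 11.7% of the 703321 leaf runs of states E1 to E8. It was wholly mixed in 4875 cases, or 6.92%, against 2.22%. The order was the opposite for the other classes, since 3.22% of the E4 runs were wholly activated, against 30.4%, and 12.01% were wholly unmodified, against 30%. These backgrounds hold the E4 runs themselves and activated and repressed runs as well, and describe modified chromatin as a whole. They were not matched for run length. Wholly repressed runs had a median of 400 bp and wholly unmodified runs a median of 200 bp. The most frequent split, repressed with mixed, had a median of 1000 bp and made up 14.5% of the runs. Among the 22568 runs of 1000 bp or more, 28.0% were wholly repressed, 3.02% wholly mixed, 2.14% wholly unmodified and 1.05% wholly activated.

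The first comparison asked whether E4 differed from the other states with H3K27me3 in leaf. Of the leaf E3 bases, 51.6% were still mixed, 21.7% were activated and 18.8% were repressed in vernalized leaf. Of the E8 bases, 43.5% were repressed, 25.2% unmodified, 20.6% mixed and 10.8% activated. Of the E5 bases, 68.6% were repressed, 28.8% unmodified, 1.84% mixed and 0.766% activated. E4 thus had a higher repressed share than either of the other mixed states, and it was the state with the highest share of bases in any H3K27me3 state, at 80.2% against 70.4% for E3, 70.4% for E5 and 64.0% for E8.

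The differences were tested over the 7 homoeologous chromosome groups, the sets of an A, a B and a D chromosome with the same number. The test was an exact permutation test that flips the signs of the group differences (two-sided), and its smallest possible p-value with 7 groups is 0.0156. Its units are parts of the same pair of segmentations, so it does not speak to variation from plant to plant. All 12 class differences of E4 against E3, E8 and E5 had this p-value, with an adjusted p of 0.0156 (Benjamini-Hochberg over the 12), and the same sign in 7 of 7 groups. As means over the groups, E4 exceeded E3 in repressed share by 37.3 ± 2.25 percentage points (SD, n = 7 groups). It exceeded E8 in repressed share by 12.7 ± 1.46 and in mixed share by 3.10 ± 0.944. It was below E5 in unmodified share by a difference of -14.5 ± 2.25 and in repressed share by one of -11.7 ± 2.69. The last of these turned to 9.16 when each run was counted once in place of each base, a setting in which the long E5 runs weigh no more than the short ones. The mixed difference from E8 fell to 0.197 in that setting (exact permutation adjusted p = 0.688). It turned to -3.41 when E4 of vernalized leaf was counted as repressed.

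The second comparison was by flank, the class of the segment next to the run on each side. E5 lay on both sides of 49946 runs, or 70.9%. Repressed with another mixed state flanked 5907 runs, repressed with unmodified 5181, and repressed with activated 4217, or 5.99%. Activated chromatin lay on both sides of 864 runs, or 1.23%. The remaining runs had activated with unmodified (1481), unmodified on both sides (1084), another mixed state with activated (626), on both sides (596) or with unmodified (503). Of all sides, 4.91% were E2, 4.52% E3, 6.63% E9 and 1.32% E8, and each of E1, E6 and E7 took less than 0.4%. The activated flank of an E4 run was thus mainly the H3K36me3 state.

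**Figure D1:**
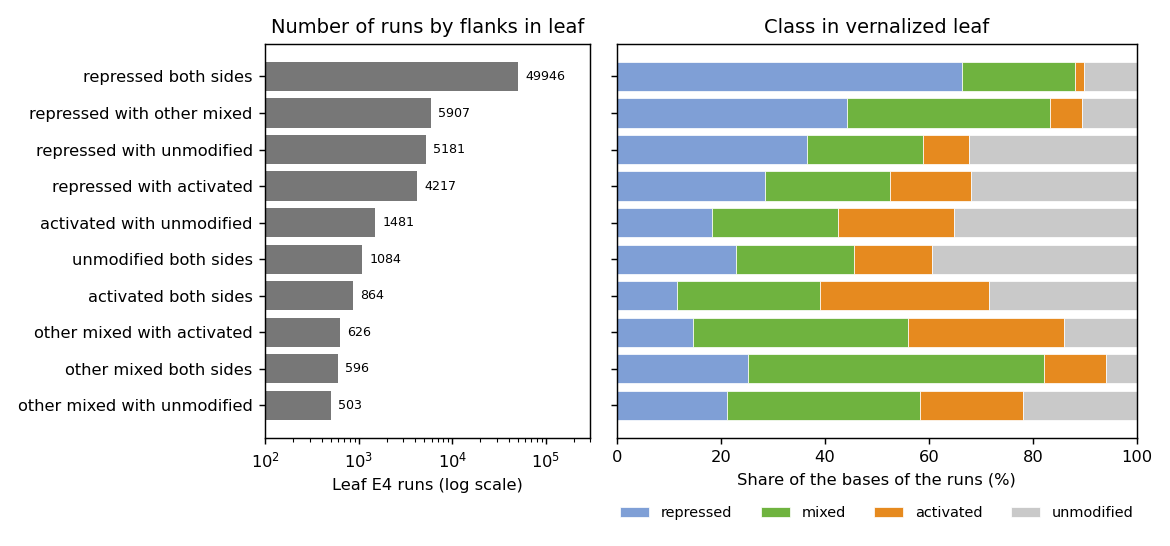
Left, the number of leaf E4 runs of each flank type, on a log axis. Right, the share (%) of their bases in each class in vernalized leaf. The repressed part shrinks from 66.5% with repressed flanks on both sides to 11.5% with activated flanks on both sides, while the mixed part of these types differs far less.

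The state of E4 in vernalized leaf followed its flanks. With repressed chromatin on both sides, 66.5% of the bases were repressed, 21.6% mixed, 10.2% unmodified and 1.76% activated. With repressed on one side and activated on the other, the shares were 28.4% repressed, 24.1% mixed, 31.8% unmodified and 15.6% activated. With activated chromatin on both sides they were 11.5% repressed, 27.6% mixed, 28.5% unmodified and 32.4% activated. The share in any state with H3K27me3 was 88.1%, 52.6% and 39.1% in this order. Runs with unmodified chromatin on one side and repressed on the other were repressed in 36.7% and unmodified in 32.3% of their bases. Runs with unmodified chromatin on both sides had the highest unmodified share, 39.4%, and were repressed in 22.9% of their bases.

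As means over the 7 groups, the repressed share was 66.4% ± 1.01, 28.4% ± 0.829 and 11.7% ± 1.504 (SD) for these flank types. The activated share was 1.77% ± 0.258, 15.6% ± 1.64 and 32.6% ± 2.73. All 6 pairwise differences of these shares had the same sign in 7 of 7 groups (p = 0.0156 by the exact permutation test, adjusted p = 0.0234 over 12 comparisons). The unmodified share was lower with repressed flanks on both sides than in either other type, by -21.5 ± 2.07 points against the one-sided type and -18.0 ± 5.03 against the type with activated flanks on both sides (adjusted p = 0.0234 for each). In runs of 400 bp alone the second of these was -2.08, with an adjusted p of 0.312. Between the one-sided type and the type with activated flanks on both sides, the unmodified share differed by 3.49 ± 4.71, with an adjusted p of 0.102. This value depended on the setting, since it was 9.95 with each run counted once and 26.6 in runs of 400 bp (exact permutation adjusted p = 0.0170 and 0.0187), but -3.13 when the 200 bp at each run end were left out (adjusted p = 0.479).

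Among these 3 flank types the mixed share varied less than the repressed and activated shares. It was lower with repressed flanks on both sides than with repressed and activated flanks, by -2.68 ± 2.13 points, a sign seen in 6 of 7 groups (exact permutation test, adjusted p = 0.0417). This call was lost without chromosome group 1, 2, 3, 4, 5 or 6, each in turn (adjusted p = 0.075 to 0.0833, where the smallest p with 6 groups is 0.0312). The difference was -0.587 when the 200 bp at each run end were left out. The type with activated flanks on both sides had the widest spread, with a mixed share of 27.4% ± 5.63, and its differences of -5.87 from repressed flanks on both sides and -3.19 from the one-sided type did not pass the test (exact permutation adjusted p = 0.0938 and 0.203). These calls depended on the setting. The first difference passed with each run counted once (-9.78), with E4 of vernalized leaf counted as repressed (-16.7), with the flank of the whole mixed block (-7.00), with the most frequent class in 1000 bp as the flank (-8.06) and in runs of 400 bp only (-15.8), and it was -1.55 when run ends were left out. The second passed with each run counted once (-5.71, exact permutation adjusted p = 0.0469). Without chromosome group 3, the difference from runs with repressed flanks on both sides was -7.09, with an adjusted p of 0.0417.

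What kind of mixed state remained also differed with the flanks. In runs with repressed flanks on both sides, 11.7% of the bases were in E4 and 8.50% in E3 in vernalized leaf. In runs with repressed and activated flanks, 2.33% were in E4 and 19.7% in E3. With activated flanks on both sides the shares were 0.637% and 25.1%. These shares of single states are a description without a test. The flank types also differed in the length of the H3K27me3 stretch around the run, which is taken up below. Runs with another mixed state on both sides kept the highest mixed share of all types, 57.0%, of which E3 made up 44.4 percentage points, but there were only 596 of them.

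Among runs with E5 on one side, the class in vernalized leaf also varied with the state on the other side, here given without a test. With E8 there, 59.0% of the bases were repressed and 2.11% activated, over 1599 runs. With E3 there, 38.8% were repressed and 41.2% mixed, over 4308 runs. With E2 there, 27.9% were repressed and 15.9% activated, over 3557 runs. With the accessible state E7 there, 36.6% were repressed and 12.7% activated, over 330 runs, and with E1 there 24.6% and 15.01%, over 309 runs.

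Within a run, the border next to activated chromatin and the border next to repressed chromatin differed. This was measured in the 1330 runs of 1000 bp or more that had repressed chromatin on one side and activated on the other. In the 400 bp next to the repressed flank, 35.3% ± 2.68 of the bases were repressed and 9.70% ± 1.25 activated in vernalized leaf (mean ± SD, n = 7 groups). In the 400 bp next to the activated flank, 22.8% ± 2.33 were repressed and 18.4% ± 2.65 activated. The mixed share was 16.7% ± 2.31 at the repressed side and 30.2% ± 3.75 at the activated side, and the unmodified share 38.3% ± 3.35 and 28.5% ± 3.87. All 4 differences had the same sign in 7 of 7 groups (p = 0.0156 by the exact permutation test, adjusted p = 0.0156).

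**Figure D2:**
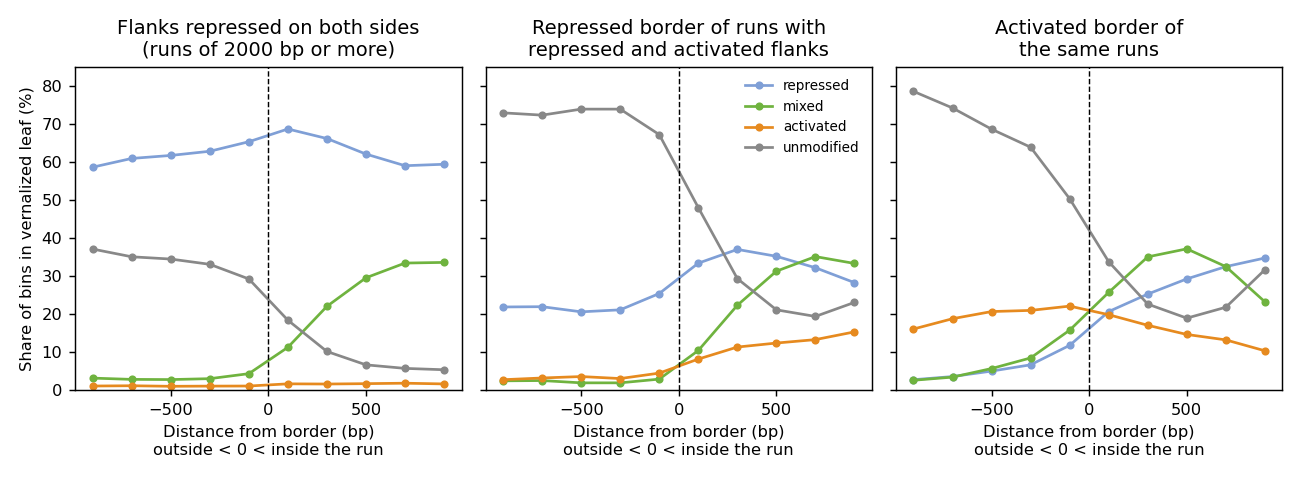
Share (%) of 200 bp bins in each class in vernalized leaf against the distance (bp) from the border of a leaf E4 run, with negative distances outside the run. Left, both borders of 2095 runs of 2000 bp or more with repressed flanks; middle and right, the borders of the 1330 runs with repressed and activated flanks. The mixed share is highest inside the run in each panel, and the unmodified share drops on entering the run.

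The profile across the borders showed that E4 runs stood out from what lay beside them. For runs of 2000 bp or more with repressed flanks, 33.6% of the bins at 800 to 1000 bp inside the border were mixed and 5.39% unmodified in vernalized leaf. In the first bin inside, 11.3% were mixed and 18.4% unmodified. In the first bin outside, 4.37% were mixed and 29.2% unmodified. In the runs with repressed and activated flanks, the first bin beyond the repressed border was unmodified in 67.1% of cases, and the first bin beyond the activated border in 50.3%. The highest mixed share was found at 600 to 800 bp from the repressed border, at 35.1%, and at 400 to 600 bp from the activated border, at 37.1%. Because these runs start at 1000 bp, the bins deepest inside the shorter ones are near the opposite border.

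E4 kept H3K27me3 more often than the E5 chromatin right beside it. For the runs with repressed flanks on both sides, the E5 bases within 1000 bp of a run were taken, 78.8 Mb in all. In vernalized leaf 72.9% of these E5 bases were in a state with H3K27me3, against 88.1% of the E4 bases, and 26.3% were unmodified, against 10.2%. As means over the groups the shares were 72.4% ± 3.92 and 87.9% ± 1.63. The difference was 15.5 ± 2.37 points, positive in 7 of 7 groups (exact permutation p = 0.0156, 1 comparison), and it was 15.3 with the E5 bases within 400 bp only. The 2 sets were not matched for their distance from the edge of the marked stretch.

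The third comparison was by run length. Runs of 1000 bp or more had a higher mixed share in vernalized leaf than shorter runs, 27.7% ± 0.675 against 17.7% ± 1.02 (mean ± SD, n = 7 groups), a difference of 9.99 ± 0.941. Their repressed share was lower by -4.70 ± 1.04 points, their unmodified share by -3.86 ± 0.606 and their activated share by -1.43 ± 0.419. All 4 differences held in 7 of 7 groups (p = 0.0156 by the exact permutation test, adjusted p = 0.0156). With the division at 2000 bp, the mixed difference fell to 3.796 (exact permutation adjusted p = 0.0312), the repressed difference was -1.48 and the unmodified difference was -0.667, and the last 2 did not pass (adjusted p = 0.0938 for each). The repressed difference was -1.75 with E4 of vernalized leaf counted as repressed, and the unmodified difference was -7.19 with each run counted once.

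Over the length bins, the mixed share was 8.75% for runs of 200 bp, 14.2% for 400 bp, 21.8% for 600 to 800 bp, 27.9% for 1000 to 1800 bp and 26.99% for 2000 to 4800 bp. It thus increased up to about 1000 bp and then levelled off. The unmodified share was 28.4% at 200 bp and 13.1% at 1000 to 1800 bp. A run of 200 bp is a single bin, so any move of a border by 1 bin can change all of it.

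**Figure D3:**
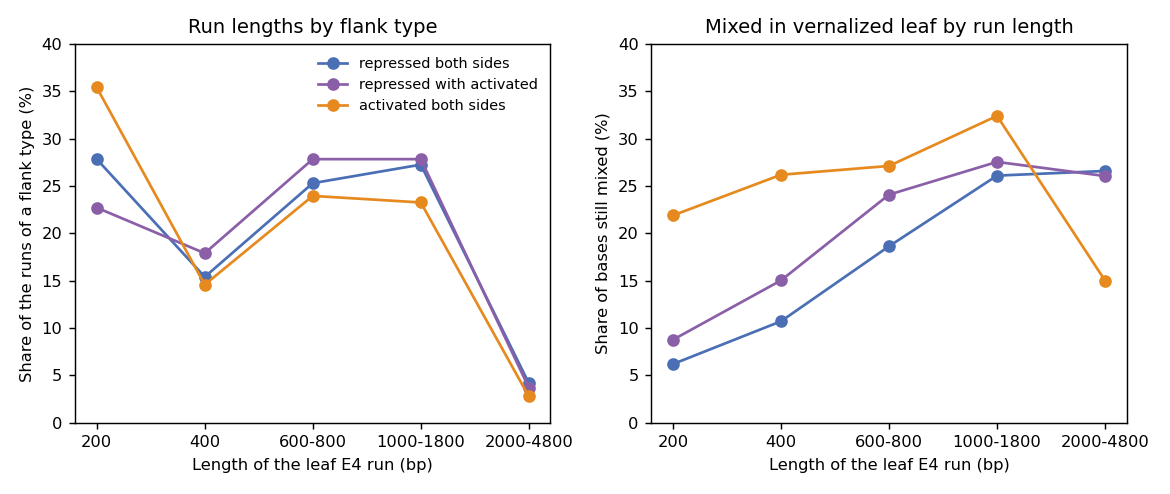
Left, the share (%) of the runs of each flank type in each length bin. Right, the share (%) of their bases that were mixed in vernalized leaf. For repressed flanks on both sides the mixed share goes from 6.20% at 200 bp to 26.6% at 2000 to 4800 bp; the last point for activated flanks on both sides rests on 24 runs.

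The increase with length was seen within flank types. With repressed flanks on both sides, the mixed share was 6.20% at 200 bp and 26.1% at 1000 to 1800 bp. With repressed and activated flanks it was 8.77% and 27.5%, and with activated flanks on both sides 21.9% and 32.4%. The mean length of these flank types was 741 bp, 746 bp and 654 bp. Runs of 200 bp made up 27.8%, 22.7% and 35.4% of their runs in the same order. Among runs of 200 bp with repressed and activated flanks, 54.5% of the bases were unmodified in vernalized leaf, against 23.9% of those with repressed flanks on both sides.

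E4 runs were embedded in stretches of H3K27me3 of very different size. An H3K27me3 block was taken as an unbroken stretch of E3, E4, E5 and E8 in leaf. This measure was chosen after the data had been seen. Its values are given without a test, with few exceptions. These are the flank difference in blocks of 2000 to 4800 bp and the position difference in blocks of 5000 to 9800 bp. Leaf had 99227 such blocks, and 45354 of them, or 45.7%, held an E4 run. Of these, 30439 held 1 run, and the largest number was 18. The median block around an E4 run was 7600 bp long, with quartiles of 3400 bp and 17000 bp. For 3429 runs, or 4.87%, the run was the whole block. The median block was 10200 bp for runs with repressed flanks on both sides and 2600 bp for those with repressed and activated flanks.

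The class of E4 in vernalized leaf varied strongly with the size of this block. In blocks under 1000 bp, 17.2% of the E4 bases were repressed, 39.0% unmodified and 25.7% activated. In blocks of 5000 to 9800 bp the shares were 59.6%, 14.1% and 3.32%. In blocks of 20000 bp or more they were 70.0%, 2.66% and 1.08%. The repressed share was higher in blocks of 10000 bp or more than in blocks under 5000 bp on 21 of 21 chromosomes, and the unmodified and activated shares were lower on 21 of 21.

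**Figure D4:**
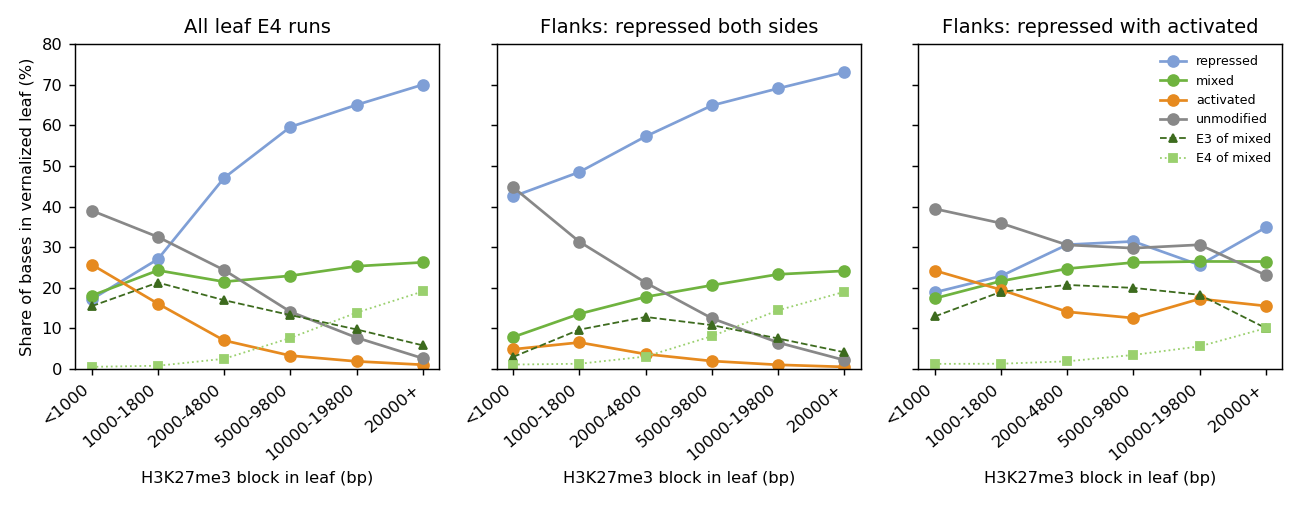
Share (%) of leaf E4 bases in each class in vernalized leaf against the length (bp) of the H3K27me3 block around the run, for all runs and for 2 flank types. Dashed and dotted lines give the part of the mixed share in E3 and in E4. In all runs the repressed share goes from 17.2% to 70.0%, and E4 exceeds E3 only in blocks of 10000 bp or more; with repressed and activated flanks the repressed share stays between 18.9% and 34.9%.

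The mixed share varied less with block length than the repressed share did. It was 21.9% in blocks under 5000 bp and 25.8% in blocks of 10000 bp or more, and higher in the latter on 21 of 21 chromosomes. With repressed flanks on both sides these shares were 17.4% and 23.8%, again with 21 of 21 chromosomes higher in the long blocks, and over the bins they went from 7.89% under 1000 bp to 24.2% at 20000 bp or more. The mixed states that made up this share changed with block length. In blocks under 1000 bp, 15.5% of the E4 bases were in E3 of vernalized leaf and 0.562% in E4. In blocks of 2000 to 4800 bp the shares were 17.0% and 2.55%, and in blocks of 5000 to 9800 bp 13.3% and 7.66%. In blocks of 20000 bp or more they were 5.85% and 19.1%. E4 bases that stayed mixed were thus mainly in E3 in the short blocks and mainly in E4 in the longest. In blocks of 2000 to 4800 bp, E3 exceeded E4 with repressed flanks on both sides too, at 12.8% and 3.10%. With repressed and activated flanks these shares were 20.7% and 1.92%. In blocks of 20000 bp or more they were 4.15% and 19.0% for the first type. For the second type they were 10.1% each, over 89 runs.

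Block length and flank both went with the class. Among runs with repressed flanks on both sides, the repressed share was 56.4% in blocks under 5000 bp and 71.1% in blocks of 10000 bp or more, and it was higher in the latter on 21 of 21 chromosomes. Among runs with repressed and activated flanks, the shares were 27.9% and 27.7%, and the latter was higher on 10 chromosomes and lower on 11. These long blocks held only 322 such runs. Within blocks of 2000 to 4800 bp, the repressed share with repressed flanks on both sides was 57.3% and with repressed and activated flanks 30.6%. These blocks were chosen for a test after the data had been seen. The difference there was 26.6 points as a mean over groups (exact permutation p = 0.0156, adjusted p = 0.0156 over 4 comparisons), against 38.0 over all blocks. The mixed difference was -7.05 there, against -2.68 over all blocks.

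The distance of a run from the nearest edge of its block gave the same order. Runs at the edge were repressed in 28.7% of their bases and unmodified in 32.0%. At 200 to 400 bp from the edge the shares were 51.6% and 20.1%, and at 5000 bp or more 70.4% and 2.48%. Runs at the edge are by definition those without H3K27me3 on at least 1 side.

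The fourth comparison was by position. E4 was most frequent towards the chromosome ends. With each chromosome cut into 20 blocks of equal length, E4 took 1.14% of the first block, 1.15% of the last and 0.0310% of the eighth. Relative to E5 the order was the opposite, with 5.36 bases of E4 for each 100 bases of E5 in the first block, 5.86 in the last and 28.2 in the sixth. The gap between neighbouring E4 runs had a median of 25.6 kb, and the longest was 50.9 Mb. Of the gaps, 8.70% were at most 400 bp long, and E5 filled 86.6% of the bases in these.

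**Figure D5:**
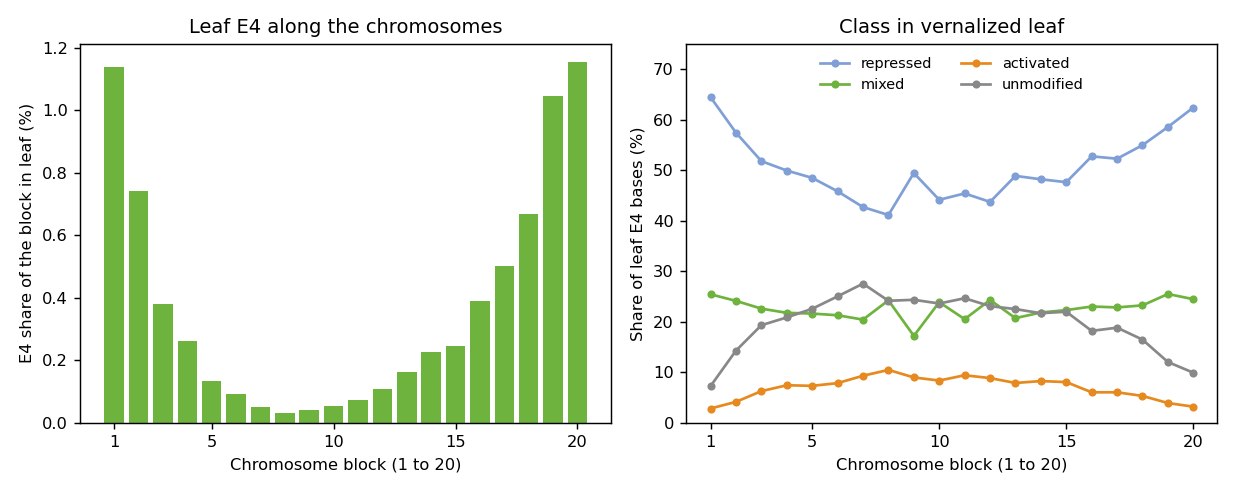
Left, the share (%) of each chromosome block that was E4 in leaf, over 20 blocks of equal length pooled over 21 chromosomes. Right, the share (%) of these E4 bases in each class in vernalized leaf. E4 takes 1.14% of the first block and 0.0310% of the eighth, and the repressed share is 64.5% in the first block and 41.1% in the eighth.

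E4 runs in the outer parts, the 10% of the length at each end, were compared with those in the middle 40%. The repressed share in vernalized leaf was 60.5% ± 2.87 in the outer parts and 46.1% ± 1.95 in the middle (mean ± SD, n = 7 groups). The unmodified share was 10.99% ± 2.56 and 23.7% ± 1.36, the activated share 3.61% ± 0.802 and 8.90% ± 1.14, and the mixed share 24.9% ± 1.10 and 21.3% ± 1.14. Each of the 4 differences held in 7 of 7 groups (p = 0.0156 by the exact permutation test, adjusted p = 0.0156). The mixed difference of 3.57 points turned to -4.86 when E4 of vernalized leaf was counted as repressed. With the outer 5% and the middle 20% it was 3.04, with an adjusted p of 0.0781.

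Outer and middle E4 runs also differed in their surroundings. Repressed chromatin flanked 77.7% of the outer runs on both sides, against 51.1% of the middle ones, and the median block was 11800 bp against 3400 bp. Within blocks of like length the gap in repressed share depended on that length. In the short blocks it was larger, with 21.7% outer and 16.1% middle under 1000 bp, and 31.5% and 23.99% at 1000 to 1800 bp. In longer blocks the shares were within 2 percentage points of each other. They were 48.4% and 47.3% in blocks of 2000 to 4800 bp, 60.2% and 60.1% in blocks of 5000 to 9800 bp, and 69.8% and 69.2% in blocks of 20000 bp or more, where the middle held 105 runs. In each of these longer bins the unmodified share was higher and the mixed share lower in the middle than in the outer parts. The unmodified share was 22.1% outer and 25.3% middle at 2000 to 4800 bp, and 2.49% and 6.81% at 20000 bp or more. A test was run in 1 of the bins, chosen after the data had been seen and among those with the smallest gap in repressed share. In these blocks of 5000 to 9800 bp the mean difference over groups was -0.110 points for the repressed share, with an adjusted p of 0.906, 0.702 for the activated share, 1.69 for the mixed share and -2.28 for the unmodified share (adjusted p = 0.396, 0.312 and 0.0625). Among runs with repressed flanks on both sides, in blocks of any length, the repressed difference was 3.66 points against 14.4 for all runs and stayed under the threshold (exact permutation adjusted p = 0.0312).

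The last comparison was by sub-genome. Bread wheat carries 3 sub-genomes, A, B and D, which come from different wild grasses. E4 had a length of 17.5 Mb in the A, 17.3 Mb in the B and 18.0 Mb in the D sub-genome, in 23535, 23330 and 23540 runs. Since the D chromosomes are shorter, E4 took 0.448% ± 0.0998 of their length (mean ± SD, n = 7 chromosomes), against 0.352% ± 0.0513 on A and 0.330% ± 0.0698 on B. The highest share was on 7D, at 0.564%, and the lowest on 1B, at 0.222%. The mean difference of A minus B in this share was 0.0215 points, and 0.00535 with the first 240 Mb of 1B left out. That stretch thus held a lower share of E4 than the rest of 1B, and the low value of 1B includes it. The cause was not tested.

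In vernalized leaf the mean class shares of the E4 bases were close to each other between the sub-genomes. Repressed bases made up 56.1% ± 2.48 for A, 55.3% ± 1.59 for B and 56.6% ± 2.29 for D. The mixed share was 24.002% ± 1.03, 23.7% ± 0.966 and 23.6% ± 0.881 in the same order, the activated share 5.03% ± 0.620, 5.38% ± 0.490 and 4.90% ± 0.823, and the unmodified share 14.9% ± 2.24, 15.6% ± 1.71 and 14.9% ± 2.06. By the exact sign-flip permutation test, 0 of 15 comparisons had an adjusted p under 0.05, and 4 had an unadjusted p under 0.05. The 15 include the share of chromosome length, a value of the leaf segmentation from which the runs were chosen. It is given without a reading, and its A minus D and B minus D differences are among the 4. The repressed share was lower on B than on D by -1.36 ± 1.06 points, with the same sign in all 7 groups (p = 0.0156 by the exact permutation test, adjusted p = 0.117). The A minus D difference was positive in 6 of 7 groups for the mixed, activated and unmodified shares, and negative in 5 for the repressed share. For the activated and unmodified shares, group 4 went the other way, with 4.17% and 11.7% on 4A against 6.60% and 17.5% on 4D. Within runs with repressed flanks on both sides, 67.1% of the bases were repressed for A, 65.9% for B and 66.4% for D.

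Single chromosomes spanned a wider range than the means of the sub-genomes. The repressed share was 52.4% on 4B, the lowest, and 59.5% on 7A, the highest. For the mixed share these were 22.1% (2D) and 25.5% (3A), for the activated share 4.17% (4A) and 6.60% (4D), and for the unmodified share 11.7% (4A) and 17.7% (4B). The share of runs with repressed flanks on both sides was lowest on 4D, at 63.3%, and highest on 7D, at 74.9%.

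The longest runs show how different the outcomes were. Coordinates are those of IWGSC RefSeq v1.0, counted from 1, and genes at these positions were not looked up. Each of these is a single region without a replicate check. The longest run of all, with 7800 bp, was on chromosome 7B from 680644601 to 680652400, inside a block of 37200 bp with E5 on both sides. In vernalized leaf 87.2% of it was in E5, 10.3% in E4 and 2.56% in E9. The longest run that was wholly mixed in vernalized leaf lay on chromosome 3D from 5004601 to 5008200, inside a block of 29200 bp, and all of its 3600 bp were in E4 there too.

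The longest run that became wholly repressed was not inside E5. It lay on chromosome 4A from 552199001 to 552203800, with E9 before it and E2 after it, and all 4800 bp were in E5 in vernalized leaf. The longest to become wholly activated lay on chromosome 2A from 543620201 to 543622600. It was 2400 bp long, between E2 segments, and in vernalized leaf 66.7% of it was in E1, 16.7% in E2 and 16.7% in E6. The longest to become wholly unmodified lay on chromosome 7B from 630655201 to 630659800, over 4600 bp, also between E2 segments.

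Among the other flank types, the longest run with repressed and activated flanks lay on chromosome 1A from 479541201 to 479545400. Over its 4200 bp, 42.9% was in E5, 33.3% in E3, 9.52% in E2 and 14.3% in E9 in vernalized leaf, so it held all 4 classes. The longest with unmodified chromatin on both sides lay on chromosome 6D from 24829001 to 24832800, and 68.4% of its 3800 bp was in E3, 21.1% in E2 and 10.5% in E9. The longest between E5 and another mixed state lay on chromosome 3D from 1045601 to 1050400, and 75% of it was in E5 and 25% in E8. The longest between E5 and E9 lay on chromosome 2B from 313526401 to 313530200, and 47.4% of it was in E5, 36.8% in E9 and 15.8% in E3.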

How the data were processed

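ChIP-seq libraries were mapped to condition by their labels. Per the labels and the study's methods, the authors trimmed reads with fastp (0.21.0), mapped them with Bowtie2 (2.3.5.1) to IWGSC RefSeq v1.0, kept reads above a mapping quality threshold, removed duplicates and gave the peaks of the 4 marks and of accessibility to ChromHMM, which gives every bin a state by a hidden Markov model. How replicates were combined is not stated in the sources used here, and weak peaks near a threshold can change a state. The deposited values are state labels per segment, with no signal. The meaning of a label was taken from the order of rows in the study's display, which the files do not show. All columns belonged to a condition (0 did not).

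The 82305 deposited E4 segments of leaf were merged into runs where they touched, and each 200 bp bin was looked up in vernalized leaf. Shares were pooled over the 3 chromosomes of each homoeologous group and compared by an exact, two-sided permutation test over all 128 patterns of signs, with Benjamini-Hochberg adjustment within each of 7 families of comparisons, 52 comparisons in all. Pooled shares and means over groups differ slightly. The members, comparisons and lists were chosen with earlier results of these data known. Regions named are the longest run of all, of each flank type with at least 1000 runs and of each class in vernalized leaf, and the chromosomes with the highest and lowest values. H3K27me3 blocks and the settings that use them were added after seeing the data. Tests in these and the other alternative settings are not among the 52 comparisons. The functions were tested on simulated segmentations. Reads per library were not used here, and a shallower library can call fewer states. Python 3.11.15, numpy 2.4.6, pandas 2.3.3, scipy 1.17.1 and matplotlib 3.10.9 were used.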

Additional observations from a re-analysis of the deposited data

How the results depend on the processing

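No paired analysis was possible because the libraries of a condition were pooled into 1 segmentation, so replicate numbers carry no values. Unless the construction of a setting shows it, the cause of a change was not tested. The intervals behind a move are narrow, since they treat bins as independent. The repressed, mixed, activated and unmodified shares of E4 bases were 55.8%, 26.0%, 4.88% and 13.3% with runs of at least 600 bp only, 57.6%, 18.9%, 5.32% and 18.1% with each run counted once, and 53.9%, 31.5%, 4.75% and 9.86% without the 200 bp at each run end. With E4 of vernalized leaf counted as repressed, the repressed share was 65.9% and the mixed share 14.3%, by construction. Runs merged across gaps of up to 400 bp had a mean of 852 bp, and 70.4% of them had repressed flanks on both sides.

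By flank, the mixed difference between repressed flanks on both sides and repressed with activated was -2.36 with runs of at least 600 bp only and -0.587 without run ends (exact permutation adjusted p = 0.0625 and 0.665), and -3.28 to -2.16 with a chromosome group left out. The mixed difference between repressed and activated flanks on both sides passed with each run counted once (-9.78), E4 as repressed (-16.7), the flank of the whole mixed block (-7.00), the most frequent class in 1000 bp as flank (-8.06) and runs of 400 bp only (-15.8). With a group left out it was -7.09 to -4.49. In runs of 400 bp the unmodified difference of these types was -2.08. Between the one-sided type and activated flanks on both sides, the mixed difference was -5.71 with each run counted once, and the unmodified difference was 9.95 with each run counted once, 26.6 in runs of 400 bp, -3.13 without run ends and 2.34 to 4.72 with a group left out.

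With a division at 2000 bp, the repressed and unmodified differences by run length were -1.48 and -0.667. By position, the mixed difference was -4.86 with E4 as repressed and 3.04 with the outer 5% and middle 20%. In blocks of 5000 to 9800 bp, a setting chosen after seeing the data, the repressed, mixed, activated and unmodified differences were -0.110, 1.69, 0.702 and -2.28. Against E8, the mixed difference was 0.197 with each run counted once and -3.41 with E4 as repressed, and against E5 the repressed difference was 9.16 with each run counted once.

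Of the sub-genome differences, none of which passed in any setting run, several changed sign. A minus D was 0.341 (repressed), -0.128 (activated) and -0.480 (unmodified) with each run counted once, and 0.757, -0.138 and -0.718 with repressed flanks on both sides only. B minus D in mixed share was -0.0707 with each run counted once and -0.0647 with E4 as repressed. With a group left out, A minus D ranged from -0.0257 to 0.566 (activated) and from -0.323 to 0.979 (unmodified), B minus D from -0.108 to 0.332 (mixed), and A minus B from -0.184 to 1.27 (repressed) and from -1.19 to 0.152 (unmodified). The border and neighbouring E5 comparisons kept their calls in each setting run.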

Other observations

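The order of states along the chromosome was not symmetric around E4, by a count made after the data had been seen. In leaf, the accessible state E7 stood directly before an E4 run, on the side of the lower coordinate, in 437 cases and directly after one in 117, and the first number was the larger on 21 of 21 chromosomes. E6 stood before an E4 run in 0 cases and after one in 29. E1 stood before in 221 and after in 331. E2, the most frequent activated neighbour, stood before in 3494 and after in 3423, with the first number larger on 10 chromosomes and smaller on 11. The same was seen between E7 and E5, with 1867 and 243 cases, on 21 of 21 chromosomes. Borders with neither E4 nor E7 also had unequal numbers, in the other direction and by a smaller part. E9 stood before E5 in 83015 cases and after it in 84429, with the second number larger on 21 of 21 chromosomes. E8 stood before E5 in 14342 and after it in 14979, with the second number larger on 20 chromosomes. In vernalized leaf the numbers for E7 were small, with 5 and 1 cases for E7 and E4 and 28 and 12 for E7 and E5. Gene strand was not used here, and no cause was tested.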
